A study of Mus musculus with 2 samples.

Results

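The Cdkn2a-Cdkn2b locus of chromosome 4, with its neighbour Mtap, and the Trp53 locus of chromosome 11 held 29 of the 53593 accessible sites listed for 1 mouse lymphoma, called T6. These were all sites that overlapped mm9 chr4:88500000-89400000 (21 sites) or chr11:69340000-69460000 (8 sites). Membership rests on position, but these loci were picked with earlier results of the same list known. The tumour came from the Eμ-myc model on a C57/Bl6 background, in which the Igh enhancer Eμ drives the Myc oncogene in B cells, and its genotype was Arf-/- Trp53+/+. It was untreated, and its cells were pressed out of lymph nodes and not purified further, so other lymph node cells could be present. The labels do not say which bases of Cdkn2a the Arf allele lacks, nor the age of the animal. DNaseI sequencing marks stretches where the enzyme cuts often because nucleosomes are absent or displaced. The series has a DNaseI library and an input library of this same tumour, and only the list of sites of the DNaseI library was analysed here. The list gives positions alone. It holds no read counts, so neither the depth nor how strongly a site was cut is known, and with 1 library there is no replicate and no test. The labelled cell type, B cells from lymph nodes, was not checked against marker genes, because no mm9 annotation was used here.

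Cdkn2a is an unusual gene with separate starts for a pair of unrelated proteins. Arf, read from the upstream start, binds Mdm2 and so protects p53 from degradation. Ink4a, read from a start further along the gene, inhibits the cyclin D-dependent kinases and so keeps Rb active. Cdkn2b lies next to Cdkn2a and encodes Ink4b, an inhibitor of the same kinases. Mtap, on the other side, encodes methylthioadenosine phosphorylase, an enzyme of methionine salvage. Trp53 encodes p53, the transcription factor that Arf protects. In Eμ-myc mice, high Myc raises Arf, and tumours commonly lose Arf or p53.

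The promoters are shown first, since the question at this locus is which start has a site. All 4 genes matched the RefSeq promoter table, which holds 5 windows for them, each of 300 bases from 250 before a start to 50 after it. The table's build is GRCm38.p6, and its coordinates were not converted to mm9. Only distances between starts in that build were set beside the mm9 sites. Capitals mark CG dinucleotides, the pair of letters that is dense in CpG islands.
Cdkn2a, Arf start (chr4:89294570-89294869, minus strand): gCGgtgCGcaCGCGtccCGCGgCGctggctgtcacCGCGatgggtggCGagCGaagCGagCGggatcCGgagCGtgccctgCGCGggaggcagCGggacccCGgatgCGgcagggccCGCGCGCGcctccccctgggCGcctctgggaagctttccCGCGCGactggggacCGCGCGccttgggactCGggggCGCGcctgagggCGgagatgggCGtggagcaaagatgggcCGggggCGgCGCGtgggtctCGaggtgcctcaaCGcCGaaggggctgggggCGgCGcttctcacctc
Cdkn2a, Ink4a start (chr4:89282143-89282442, minus strand): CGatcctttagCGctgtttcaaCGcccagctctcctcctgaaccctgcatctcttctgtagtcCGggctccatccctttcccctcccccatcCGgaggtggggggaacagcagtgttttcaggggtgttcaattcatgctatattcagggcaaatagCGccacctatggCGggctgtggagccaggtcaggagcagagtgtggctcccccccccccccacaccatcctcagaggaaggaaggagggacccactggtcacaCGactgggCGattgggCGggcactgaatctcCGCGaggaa
Cdkn2b (chr4:89310983-89311282, minus strand): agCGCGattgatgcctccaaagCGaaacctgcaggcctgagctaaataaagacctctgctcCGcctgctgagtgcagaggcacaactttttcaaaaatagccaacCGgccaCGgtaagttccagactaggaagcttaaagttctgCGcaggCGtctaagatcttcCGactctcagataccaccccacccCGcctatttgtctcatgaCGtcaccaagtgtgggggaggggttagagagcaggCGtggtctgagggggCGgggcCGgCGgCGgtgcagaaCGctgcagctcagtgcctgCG
Mtap (chr4:89137120-89137419, plus strand): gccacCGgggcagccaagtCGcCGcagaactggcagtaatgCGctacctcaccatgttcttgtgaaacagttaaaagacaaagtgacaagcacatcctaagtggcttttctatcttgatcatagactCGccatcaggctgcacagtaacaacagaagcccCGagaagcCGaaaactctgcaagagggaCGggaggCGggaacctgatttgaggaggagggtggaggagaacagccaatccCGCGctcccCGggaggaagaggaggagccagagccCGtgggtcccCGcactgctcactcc
Trp53 (chr11:69580109-69580408, plus strand): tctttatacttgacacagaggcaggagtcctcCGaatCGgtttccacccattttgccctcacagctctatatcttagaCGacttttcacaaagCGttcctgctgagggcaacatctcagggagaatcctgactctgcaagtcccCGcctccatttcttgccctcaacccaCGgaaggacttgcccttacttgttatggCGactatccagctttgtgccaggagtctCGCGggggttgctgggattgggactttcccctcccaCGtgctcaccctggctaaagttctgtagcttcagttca

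The Arf start was far richer in CG than the others. Its window held 45 CG dinucleotides and 77% G and C, and 98.1% of the 32851 windows of the table held fewer CG. The Ink4a window held 12 CG, the Cdkn2b window 18, the Mtap window 14 and the Trp53 window 10, against a median of 7 over the table. The ratio of observed to expected CG, which corrects for the content of C and G, was 1.04 at the Arf start and 0.442 at the Ink4a start. It was 0.722 for Cdkn2b, 0.575 for Mtap and 0.494 for Trp53, and the median of the table was 0.384. The Arf and Ink4a starts lie 12427 bp apart in this build, both on the minus strand.

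**Figure D1:**
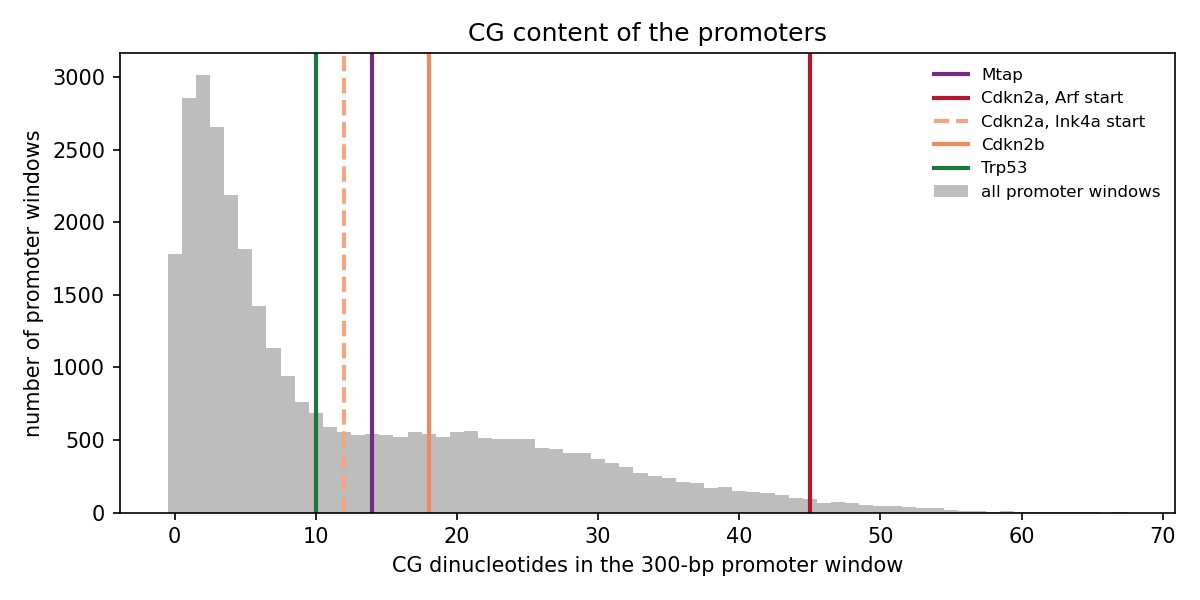
Number of RefSeq promoter windows (vertical axis) by the count of CG dinucleotides in the window (horizontal axis); bars are all 32851 windows and lines the 5 windows of Mtap, Cdkn2a, Cdkn2b and Trp53. The Arf start stands at 45 CG, and the other starts at 10 to 18.

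Letters of 5 known motifs were searched on both strands of these windows. CACGTG, the E-box that Myc and its relatives bind, was found only in the Trp53 window among the 5, with its first base at position 11, counted from 1 at the start; 7.15% of all windows hold it. TGACGTCA, the cyclic AMP response element, was found only in the Cdkn2b window, at position -46 (counted back from the start), and 1.79% of all windows hold it. GGGCGG, the GC box of Sp factors, occurred at 3 places in the Arf window, at positions -48, -14 and 32. The Ink4a and Cdkn2b windows held 1 GC box each, and 35.7% of all windows hold at least 1. CCAAT was found once each for Mtap, Ink4a and Trp53 (37.4% of all windows), and at Ink4a it shared 2 bases with the GC box. TATAAA was found only for Trp53, at position -248 on the opposite strand (13.6% of all windows). These are matches of letters in the reference sequence, and binding was not measured.

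Cdkn2a was not wholly without sites: its upstream end, where Arf starts, had a wide one. In mm9 the gene spans chr4:88920377-88940555 and is read from its upper end downwards. The site at chr4:88939951-88941706 was 1756 bp wide, reached 605 bp into the gene and extended 1151 bp upstream of it. Its centre lay 0.2735 kb upstream of the gene's end. Of all sites in the list, 93.1% were narrower. The RefSeq table also places the start of Gm12610, a long non-coding RNA on the plus strand, 561 bp upstream of the Arf start in GRCm38.p6. By that spacing the Gm12610 start falls inside the site too, though the builds were not aligned. The site was not assigned to one of these starts, and the list does not say which alleles or cells the cuts came from.

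The rest of the gene had no site. The remaining 19574 bp of Cdkn2a, 97.0% of its 20179 bp, lay in a stretch without sites that ran from chr4:88839609 to 88939950. This part of the gene holds the Ink4a start, which lies 12427 bp from the Arf start in GRCm38.p6, and the exons that Arf and Ink4a share. The stretch was 100.3 kb long, 14.2 times the median gap of 7.05 kb between neighbouring sites on the autosomes and X. It went on for 80.8 kb beyond the downstream end of Cdkn2a, in the direction of Mtap, and ended there at a site of 265 bp (chr4:88839344-88839608). The list held many gaps of this length. Of 53477 gaps, 93.9% were shorter (95% interval 93.7 to 94.1%), 3253 were as long or longer, and on chromosome 4 it ranked 169th of 3289. By length the stretch was less extreme: shorter gaps held 28.0% of the summed length of all gaps, so a point picked at random between sites falls more often in a gap at least this long than in a shorter one. The stretch was picked because it covers a named gene, and the share by length is the closer measure for such a choice.

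Wide sites beside such long gaps were also found elsewhere. Of the 3715 sites on the autosomes and X that were at least as wide as the Cdkn2a site, 276 (7.43%, 6.61 to 8.32%) bordered a gap at least as long as this stretch. Among all 53497 sites there, 10.8% did. A neighbour within 5 kb was present for 64.6% of the sites of that width or more. The Cdkn2a site had none so close, and its nearest neighbour was the site at Cdkn2b.

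Cdkn2b had a site near its upstream end. The gene was taken as about chr4:88952000-88958000, and like Cdkn2a it is read from its upper end. The site at chr4:88956097-88957497 lay wholly inside these approximate bounds and was 1401 bp wide, more than 86.3% of all sites. In GRCm38.p6 the Cdkn2b start lies 16413 bp upstream of the Arf start. By that spacing the Cdkn2b start falls inside this site, part of which would then lie upstream of the gene, though the builds were not aligned. No other site overlapped the gene. It was separated from the Cdkn2a site by 14.4 kb without a site, and 64.9% of all gaps were shorter than that. Above it came 59.1 kb without a site, longer than 89.4% of all gaps. Of the 21 sites on the chromosome 4 side, only the site of 1779 bp described below with Mtap was wider than either of these.

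**Figure D2:**
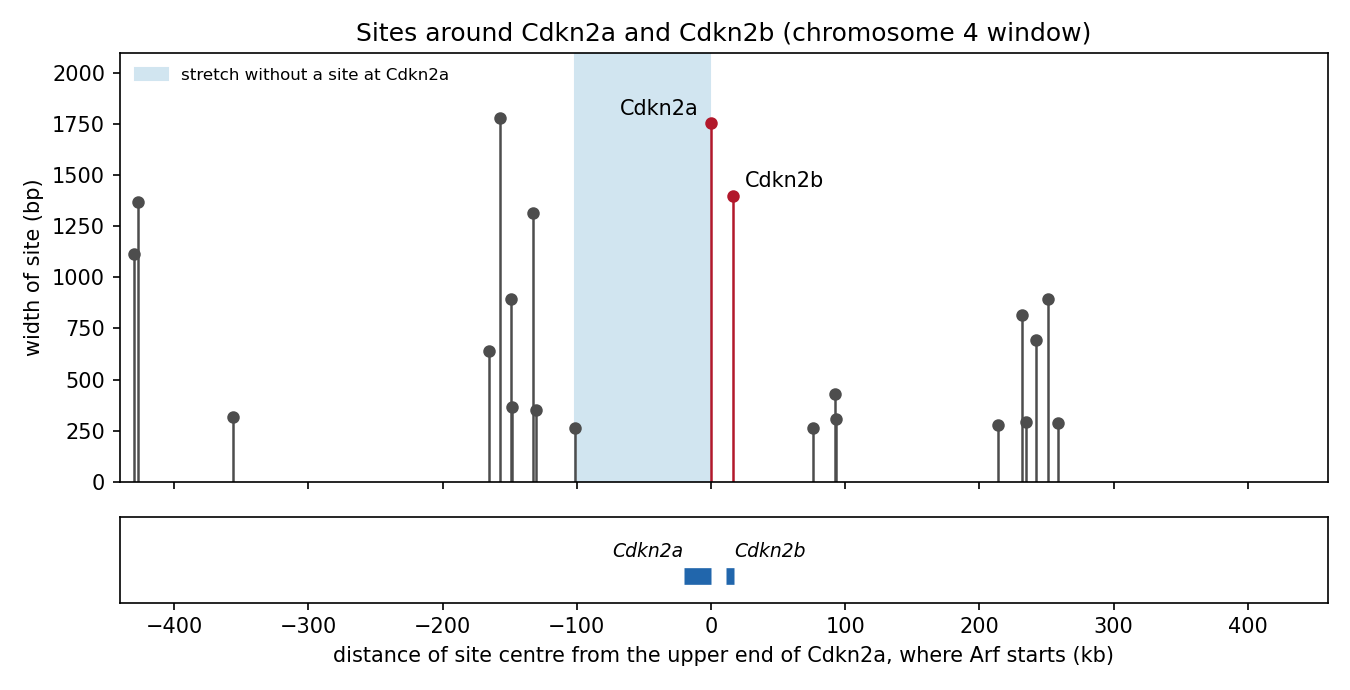
Width of each of the 21 sites of the chromosome 4 window (vertical axis, bp) against the distance of its centre from the upper end of Cdkn2a (horizontal axis, kb); the lower strip shows the genes, with Cdkn2b at approximate bounds, and the shaded band is the stretch without a site. The band ends at the site of 1756 bp at the upper end of Cdkn2a and reaches 100.3 kb downwards.

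The sites around Cdkn2a fell into 4 groups, set apart by gaps of 100 kb or more. This number hangs on the cut: a slightly higher one would join the group with Cdkn2a to the group on the Mtap side, since 100.3 kb parts them. No other cut was tried. The group with Cdkn2a and Cdkn2b held 5 sites over 93.8 kb, of which the 3 above Cdkn2b were 264, 427 and 306 bp wide. The sites at Cdkn2a and Cdkn2b, at 1756 and 1401 bp, were the widest of this group. The 3 narrower ones began at chr4:89016610, 89032816 and 89033442, and the next protein-coding gene after Cdkn2b in the RefSeq table is Dmrta1.

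The group on the Mtap side held 7 sites over 64.5 kb (chr4:88775062-88839608). The position taken for Mtap, near 88800000, is a rounded point and does not mark the start of the gene. This point lay inside the group, 7.55 kb above the end of one site and 7.42 kb below the start of the next. The widest of the group and of the whole chromosome 4 window was 1779 bp (chr4:88782695-88784473), wider than 93.4% of all sites, and began 17.3 kb below that position. The next widest was 1318 bp (chr4:88807422-88808739), followed by 896 and 638 bp, and the other 3 were narrow, at 363, 349 and 265 bp. Sites under 400 bp are called narrow here and those over 1500 bp wide. The ends of Mtap in mm9 were not used. In GRCm38.p6 the Mtap start is at chr4:89137370 and the Arf start at chr4:89294619. By that spacing, counted down from the upper end of Cdkn2a, the Mtap start falls inside the site of 1779 bp. The builds were not aligned, and none of these sites is assigned to its start.

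Further out, the lowest group held 3 sites of 1115, 1370 and 314 bp (chr4:88510253-88584813), and was parted from the Mtap group by the longest gap inside the window, 190.2 kb. In the RefSeq table the genes next to Mtap on that side are interferon genes, from Ifne to Ifna6 in the 5 places looked at. The highest group held 6 sites of 279, 817, 293, 696, 892 and 285 bp in order of position (chr4:89154409-89199347), 120.7 kb above the group with Cdkn2a. It had no wide site and 3 narrow ones.

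The longest stretch without a site at this locus did not lie at Cdkn2a but above it. No site was listed from chr4:89199348 to 94222629, a stretch of 5.02 Mb that began 258.8 kb above the upper end of Cdkn2a. It was the third longest gap of chromosome 4 and the 28th longest of 53477 on the autosomes and X. In the RefSeq table the protein-coding genes that follow Cdkn2b are Dmrta1, Zfp352, Elavl2, Izumo3 and Tusc1, and which of them lie in the stretch was not analysed here. The first sites beyond it were 511 and 561 bp wide. Of the 5 gaps of 100 kb or more that touched the chromosome 4 window, the stretch at Cdkn2a was the shortest. The cut of 100 kb lies just below its length, so this place is largely set by the cut. The others were 100.7, 120.7 and 190.2 kb long, beside the 5.02 Mb. The gap of 100.7 kb lay across the lower edge of the window, whose nearest site outside was 310 bp wide (chr4:88409233-88409542). A list of sites does not give the copy number of DNA, so loss of DNA and closed chromatin cannot be told apart in any of these stretches.

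**Figure D3:**
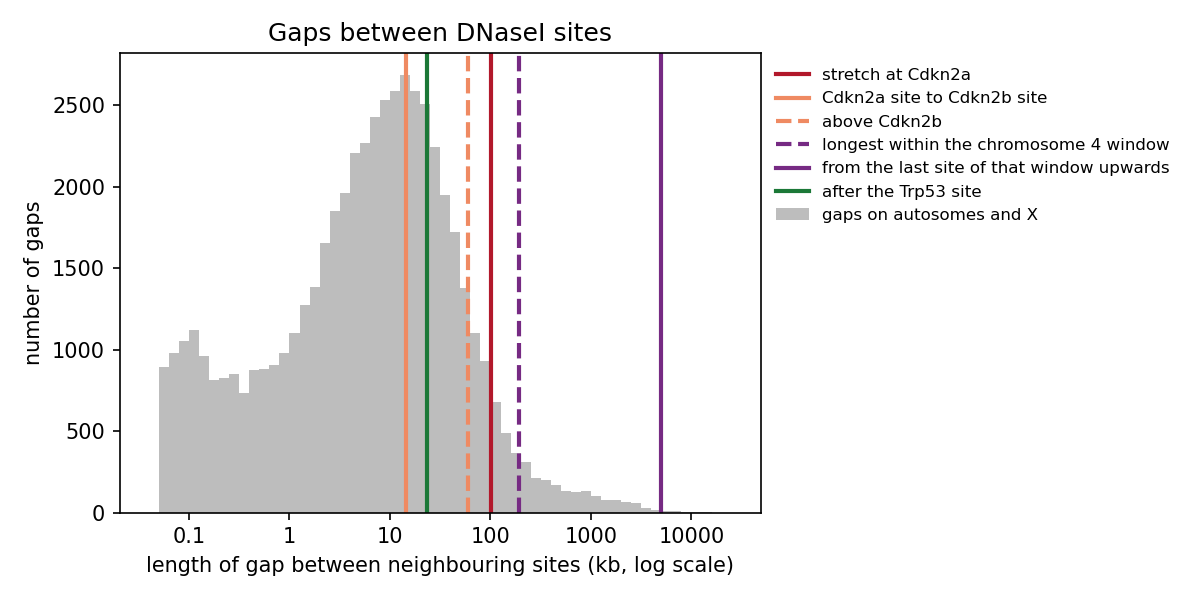
Number of gaps (vertical axis) by length (horizontal axis, kb, log scale) between neighbouring sites; lines mark gaps at Cdkn2a, Cdkn2b and Trp53 and bars all 53477 gaps on the autosomes and X. The stretch at Cdkn2a (100.3 kb) lies in the upper tail of the bars, and the one above the last site of the chromosome 4 window (5.02 Mb) near their end.

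Trp53 had the widest site of either locus, over its start. The gene spans chr11:69393861-69405375 and is read upwards. The site at chr11:69392064-69395425 was 3362 bp wide, with 1797 bp before the gene and 1565 bp inside it, and its centre was 116.5 bp before the start. Of all sites in the list, 99.6% were narrower and 0.371% were at least as wide. It was 1 of 196 sites of that width or more on the autosomes and X, of which 80.6% had a neighbour within 5 kb. The Trp53 site had such a neighbour too, a site of 271 bp that ended 2.81 kb before it (chr11:69388981-69389251). In the RefSeq table Wrap53, which encodes a telomerase and Cajal body protein, is read from the minus strand, and its nearest start lies 109 bp before that of Trp53 in GRCm38.p6. The site was not assigned to one of these starts.

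The body of Trp53 had no further site. The 9950 bp beyond the start site, 86.4% of the gene, fell into a gap of 23.3 kb (chr11:69395426-69418732), which ran past the gene's end. On chromosome 11 this gap ranked 872nd of 4469 by length, and 13373 of the 53477 gaps were as long or longer. Trp53 and Cdkn2a thus shared the arrangement of a wide site at the upstream end and none over the rest, but the gap at Cdkn2a was the longer one. Cdkn2b was arranged alike, with a site of 1401 bp near its upstream end and no other. How common this arrangement is among other genes was not measured.

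The other sites of the chromosome 11 window were at most 1228 bp wide. The 2 before the Trp53 site were the narrowest, at 263 bp (chr11:69360109-69360371) and 271 bp. After the gene came a site of 1228 bp (chr11:69418733-69419960), 25.5 kb from the start of Trp53 by its centre. A close set of 4 followed, with widths of 862, 319, 820 and 816 bp (chr11:69441594-69447478). The RefSeq neighbours are Wrap53, Efnb3, Dnah2, Kdm6b and Tmem88 before Trp53 and Atp1b2, Shbg, Sat2, Fxr2 and Sox15 after it, by order only. Just outside the window lay sites of 302 bp below (chr11:69327187-69327488) and 1235 bp above (chr11:69468244-69469478).

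**Figure D4:**
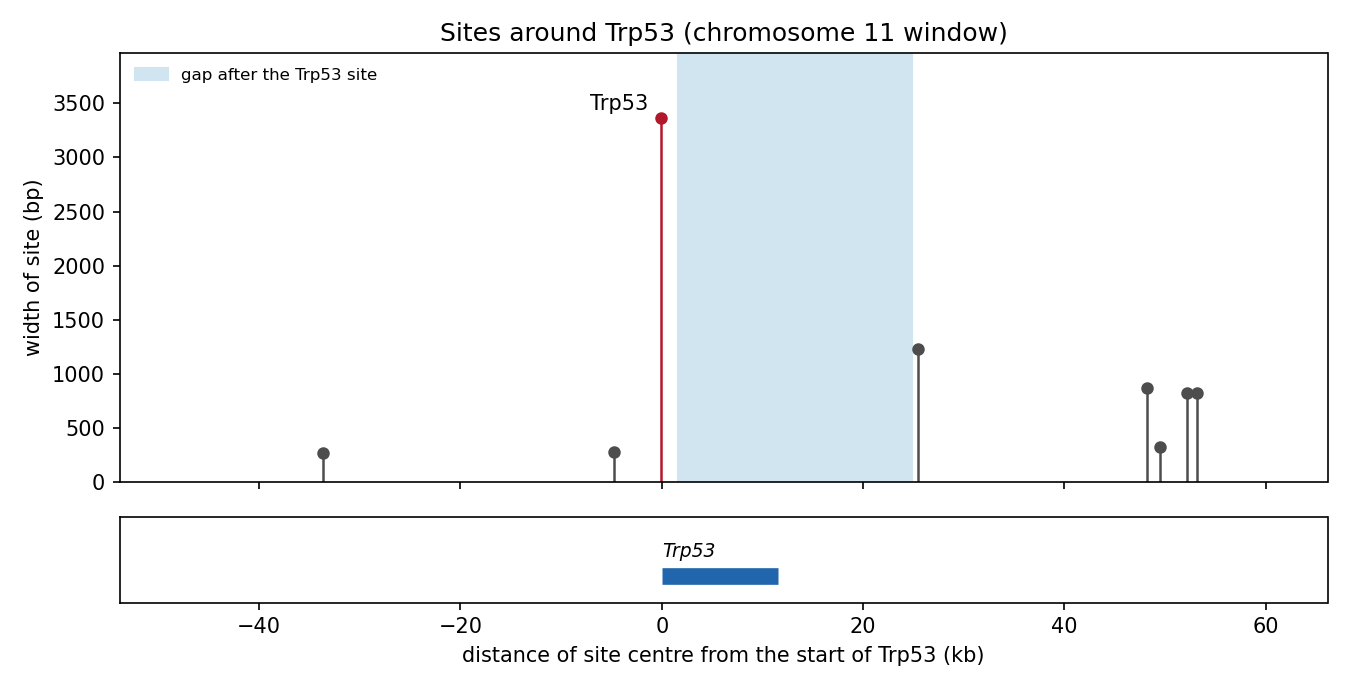
Width of each of the 8 sites of the chromosome 11 window (vertical axis, bp) against the distance of its centre from the start of Trp53 (horizontal axis, kb); the lower strip shows the gene, and the shaded band is the gap after the start site. The site over the start is 3362 bp wide, and the next widest is 1228 bp.

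Neither window as a whole was sparse beside the rest of the genome. This does not describe the surroundings of Cdkn2a alone, since only 5 of the 21 sites of the chromosome 4 window lay in the group with Cdkn2a and Cdkn2b. The chromosome 4 window held 23.3 sites per Mb (exact Poisson 95% interval 14.4 to 35.7), against 21.6 on the whole of chromosome 4 and 20.9 on the autosomes and X. Both densities lay inside its interval. Of 2916 windows of 900 kb tiled over the autosomes and X, 67.7% held fewer sites than this one, and their median was 8. The chromosome 11 window held 66.7 sites per Mb (28.8 to 131), against 37.6 on chromosome 11, which is inside that interval, and 20.9 on the autosomes and X, which is below it. Of 21950 tiled windows of 120 kb, 88.1% held fewer sites and 57.0% held none. Sites covered 1.76% of the chromosome 4 window and 6.62% of the chromosome 11 window, against 1.69% over the autosomes and X. The Trp53 site alone made up 3362 of the 7941 bp covered in the chromosome 11 window. All intervals reflect counting error alone, and sites that lie close together are not independent of each other.

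The widths ran from 264 to 1779 bp in the chromosome 4 window and from 263 to 3362 bp in the chromosome 11 window, against 249 to 11025 bp in the whole list. The median was 638 bp in the chromosome 4 window (95% interval 306 to 1115, 21 sites) and 818 bp in the chromosome 11 window (263 to 3362, 8 sites), against 663 bp for all sites. The interval of the chromosome 11 window is its whole range, and its median was 1541 bp when sites at most 1 kb apart were joined, which left 6. Narrow sites were 9 of 21 (42.9%, exact binomial interval 21.8 to 66.0%) in the chromosome 4 window and 3 of 8 (37.5%, 8.52 to 75.5%) in the chromosome 11 window. Over the whole list they were 30.5%, inside both intervals. Widths were not tested against the list. The 3 wide sites of the 29 were those at the Arf start, at the Trp53 start and at chr4:88782695.

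**Figure D5:**
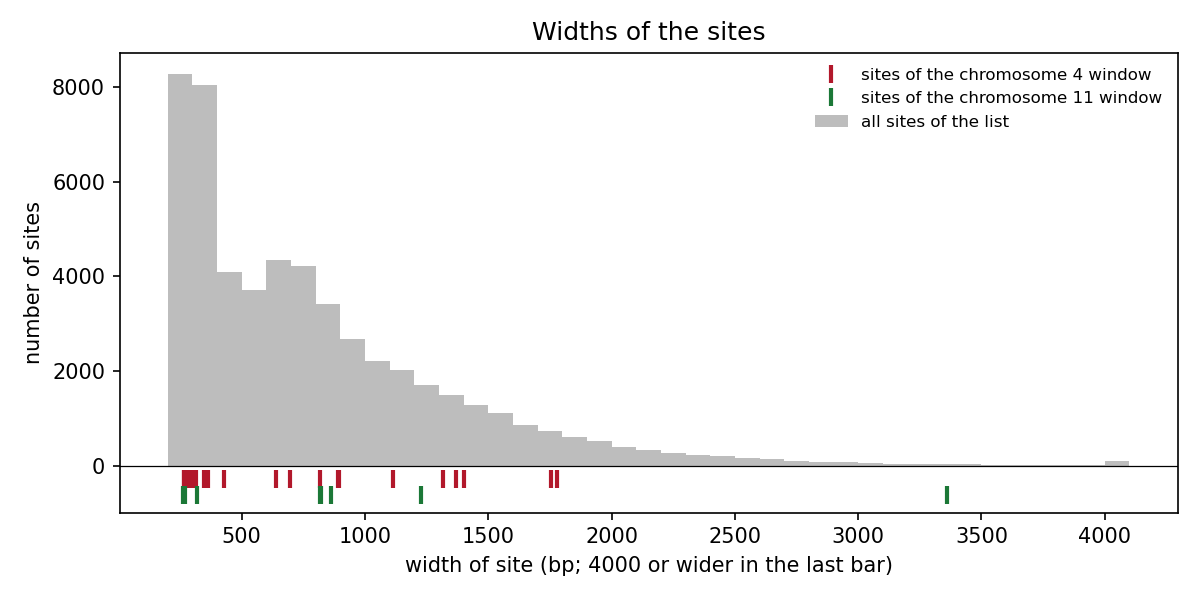
Number of sites (vertical axis) by width (horizontal axis, bp); ticks below the axis mark the 21 sites of the chromosome 4 window and the 8 of the chromosome 11 window, and bars all 53593 sites of the list. The Trp53 site at 3362 bp stands alone to the right, and the Cdkn2a site at 1756 bp and the widest site of the Mtap group at 1779 bp lie side by side.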

How the data were processed

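Accessible sites were taken from the list that the authors deposited for the DNaseI library, which holds mm9 positions without any score, count or signal. The submitters' processing notes name BWA 0.6.2, SAMtools and mm9. How peaks were called, at which threshold and with what role for the input is not given in the sources used here. Starts were converted to count from 1. A site belonged to a window when any base overlapped it. Gaps were measured between neighbouring sites on the autosomes and X. Densities per chromosome used the span between its outermost sites. Tiled windows ran from position 1 and counted sites by midpoint. The mm9 positions of the windows, of Cdkn2a, Cdkn2b and Trp53, and roughly of Mtap, were set with the choice of sites and were not checked against an mm9 annotation. The members, gene names and lists were chosen with earlier results of these data known. The genes named were the members and the next 5 protein-coding genes on each side, from RefSeq (GRCm38.p6), besides Gm12610, which was added after its place was seen. Of the positions in that build, only the order of genes and the distances between starts were set beside the mm9 sites. The 5 motifs were also chosen after the promoters were read. The planned lists of pathway genes and cell type markers need an mm9 annotation and were not analysed here. Scripts ran under Python 3.11.15 with numpy 2.4.6, scipy 1.17.1, pandas 2.3.3 and matplotlib 3.10.9, and the gap and motif searches were tested on simulated data. Alternatives were a midpoint rule, wider sites only, joined sites, shifted tiles and other ranks of the stretch at Cdkn2a.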

Additional observations from a re-analysis of the deposited data

How the results depend on the processing

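Of 15 values computed under another setting, 8 stayed within their limit and 7 moved beyond it. A count could change by at most 1.5 times, and a share or a median had to stay inside its 95% interval. The length of the stretch counted as moved at any change. Keeping only the sites wider than the median of 663 bp was the nearest substitute for a stricter threshold. The chromosome 4 window then kept 10 sites and the chromosome 11 window 5, and the stretch at Cdkn2a grew to 131.2 kb. The median gap grew too, from 7.05 to 15.75 kb, and the share of gaps shorter than the stretch fell from 93.9% to 89.8%. With the narrowest 10% of sites left out the stretch was 129.2 kb, and 94.7% of gaps were shorter. These shares are not among the 15 values. In both cases its upper end stayed at the site at the Arf start and its lower end moved towards Mtap. Without that site, a setting chosen after seeing the data, the stretch was 116.5 kb and ended at the Cdkn2b site, so 1 site sets whether the stretch stops inside Cdkn2a. The share of gaps shorter than the stretch was 94.9% on chromosome 4 alone. Shorter gaps held 28.0% of the summed length of all gaps, so the high rank holds by number of gaps and not by length. Joining sites at most 1 kb apart moved the median width in the chromosome 11 window to 1541 bp, against 818 bp as listed; this is counted among the 8 because the interval of 8 sites is their whole range. Sites could not be ranked by signal, since the list has none, and its depth is unknown. No paired analysis was possible because there is 1 list of sites.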
